A study of Drosophila melanogaster with 4 samples.

Results

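HP1b-enriched regions along the right arm of the third chromosome of Drosophila melanogaster, 3R, were described outside the 2 Mb next to the centromere. The regions came from chromatin immunoprecipitation followed by sequencing (ChIP-seq) of head nuclei of Oregon-R flies, a wild-type strain, labelled as mixed adults. The series held 4 samples, namely 2 ChIP samples made with an HP1b antibody, Q4114, called replicates 1 and 2 here, and 2 inputs, which are chromatin taken without immunoprecipitation and have no values of their own here. Members were the regions typed as enriched, called clusters below, of the authors' combined list for the replicate set that lay on 3R and ended beyond position 2000000 of FlyBase release 5. This gave 1512 of the 7807 enriched clusters in the combined list. The same rule gave 1328 of 6687 clusters in the list of replicate 1 and 1269 of 6471 in that of replicate 2.

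The clusters on either side of the 2 Mb boundary were of like width in the replicate lists but not in the combined list. In the combined list the last cluster left out spanned 1995587 to 1997729 of 3R, was 2143 bp wide and had a score of 1.03. The first kept spanned 2159242 to 2160244, was 1003 bp wide and scored 0.557. No cluster of either replicate list overlapped it. The last cluster left out was 2078 bp wide in replicate 1 and 2159 bp in replicate 2, and the first kept 2178 and 2170 bp. In the replicate lists the first kept cluster began at 2170610 in replicate 1 and at 2170616 in replicate 2, and both lists held a second one of more than 5 kb a few kb further on.

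Proteins of the HP1 family carry a chromodomain, which binds methylated histone H3 tails, and a chromoshadow domain, through which they pair and recruit partners. HP1a, the founding member, is known for its role in pericentric heterochromatin and in capping fly telomeres, while HP1b has been seen in euchromatin as well as heterochromatin. Fly telomeres are built of retrotransposons rather than of short repeats made by telomerase. The long arms are mostly euchromatin with genes throughout, so 3R beyond its first 2 Mb shows HP1b away from the pericentric block.

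HP1b clusters were frequent on this stretch taken as a whole, though unevenly spread along it. Clusters covered 13.7% of its 25.9 Mb in replicate 1 and 13.0% in replicate 2, a mean of 13.4% ± 0.502 (SD, n = 2). They numbered 51.3 per Mb in replicate 1 and 49.0 per Mb in replicate 2. The combined list covered more, 15.4% with 58.4 clusters per Mb. The files hold no read counts, so the depth of the libraries is unknown and the spread of the 2 replicates is the only error at hand. Nothing in the labels says that the replicates were separate collections of flies, so that spread may be technical. Only 1 group has lists, so no group comparison and no p-value could be made.

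Most 3R clusters of each replicate had a counterpart in the other, counted from an overlap of 1 bp. In replicate 1 this held for 1206 of 1328 clusters (90.8%), beside 89.7% over all sequences of the series. In replicate 2 it held for 1202 of 1269 (94.7%), beside 92.8% over all sequences. Among 1169 clusters that matched in pairs, midpoints differed by a median of 32.0 bp, starts by 41.0 bp and ends by 39.0 bp. In 90% of these pairs the midpoints lay within 181 bp of each other. No pair had identical start and end. Replicate 1 had the wider cluster in 756 pairs and replicate 2 in 410, with a median difference of 35.0 bp. Across the pairs Pearson's r was 0.971 for the authors' scores and 0.954 for the widths, and Spearman's rho was 0.953 and 0.904. Pairs are clusters of the same libraries and not independent samples, so these are descriptions.

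Combined members fell into 4 classes by this overlap. Both replicates overlapped 1184 of the 1512 members, or 78.3% (95% Wilson interval 76.2 to 80.3%, counting error only), against 75.0% of all enriched clusters in the combined list. Replicate 1 alone overlapped 114 members (7.54%, against 8.25% over all sequences) and replicate 2 alone 62 (4.10%, against 5.69%). A further 152 members (10.1%, against 11.0%) were overlapped by neither replicate list. The shares on 3R were close to those of the whole list, to which 3R itself contributes. The interval counts clusters of the same libraries as if they were independent, so it does not test the difference from 75.0%.

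Members seen in both replicates were wide and of high score, and the others narrow and of low score. The median score was 1.13 for members overlapped by both replicates, 0.258 for those of replicate 1 alone, 0.247 for those of replicate 2 alone and 0.290 for those of neither. The median widths in the same order were 2446, 1706, 1731 and 1257 bp. When the members were divided by score into 4 groups of 378, the group of lowest scores had 113 members (29.9%) in both replicates and the next group 321 (84.9%). The groups above had 374 (98.9%) and 376 (99.5%). Of the members in neither list, 82 (53.9%) were under 1301 bp wide, and no cluster of either replicate list was as narrow on any sequence.

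**Figure D1:**
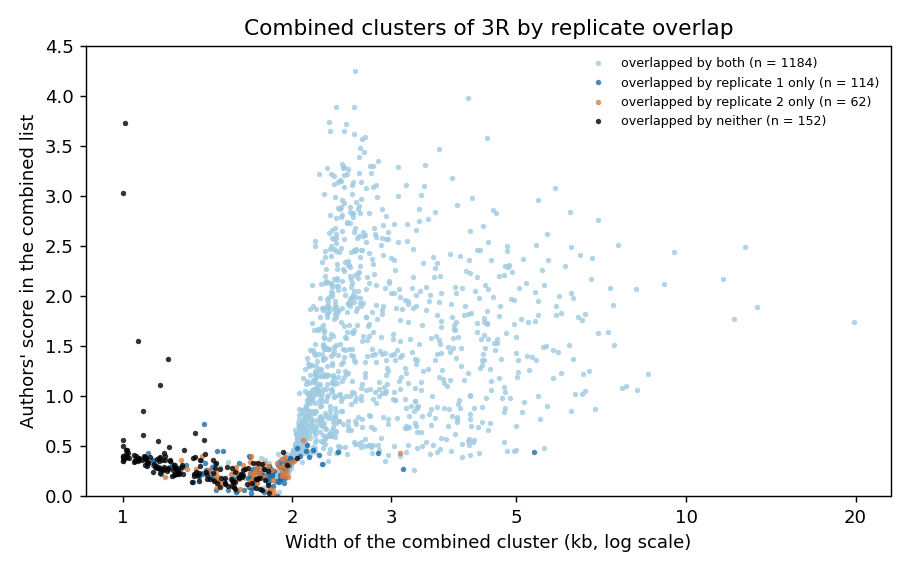
Authors' score in the combined list (vertical axis, scale not given) against width in kb (horizontal log axis) for the 1512 combined clusters of 3R beyond 2 Mb, each point a cluster coloured by the replicate lists that overlap it. Nearly all clusters of 2 kb or wider were overlapped by both replicates, and 2 clusters of about 1 kb in neither list stood at scores of 3.73 and 3.03.

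A pair of narrow members, chosen after the scores were known, went against this order. The member from 8297010 to 8298019 of 3R, 1010 bp wide, had a score of 3.73 and ranked 6 among the 1512 members, yet lay 2701 bp from the nearest replicate 1 cluster and 17337 bp from the nearest of replicate 2. The member from 26506048 to 26507048, 1001 bp wide, had a score of 3.03 and ranked 50, with the nearest replicate clusters 62074 and 77245 bp away. The other members in neither list stayed at or below 1.55.

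HP1b clusters of 3R were most often between 2 and 3 kb wide. That class held 729 of 1328 clusters (54.9%) in replicate 1, 703 of 1269 (55.4%) in replicate 2 and 741 of 1512 (49.0%) in the combined list. The median width was 2306 bp in replicate 1 and 2290 bp in replicate 2, a mean of 2298 ± 11.3 bp (SD, n = 2). The lower and upper quartiles were 2020 and 2897 bp for replicate 1, and 2023 and 2833 bp for replicate 2. Clusters under 2 kb made up 22.2% of replicate 1, 22.3% of replicate 2 and 28.0% of the combined list. The combined list reached down to 1001 bp, whereas the narrowest 3R cluster was 1304 bp in replicate 1 and 1310 bp in replicate 2.

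Score changed sharply with width around 2 kb. In the combined list the median score was 0.187 for the 88 members of 1500 to 1750 bp, 0.282 for the 181 members of 1750 to 2000 bp, 0.650 for the 299 of 2000 to 2250 bp, 1.49 for the 233 of 2250 to 2500 bp and 1.96 for the 138 of 2500 to 2750 bp. It stood at 0.359 for the 87 members under 1250 bp. The share in both replicates went from 7.95% at 1500 to 1750 bp over 57.5% at 1750 to 2000 bp to 96.7% at 2000 to 2250 bp. Within the class of 2 to 3 kb, score rose with width in each list, with Spearman's rho of 0.643 in replicate 1, 0.656 in replicate 2 and 0.617 in the combined list. At 3 kb or wider the relation was weak in each list (rho 0.138, 0.187 and 0.137). Below 2 kb it was positive in the replicates (0.277 and 0.244) and negative in the combined list (-0.109). Width and score are both read from the same signal, so these correlations across clusters describe the lists and carry no test.

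Wide clusters were few on 3R. Clusters of 5 kb or wider numbered 65 of 1328 (4.89%) in replicate 1, 59 of 1269 (4.65%) in replicate 2 and 79 of 1512 (5.22%) in the combined list. Over all sequences the shares were 6.40% in replicate 1, 6.41% in replicate 2 and 7.20% in the combined list. These wide clusters held 11.8% of the covered sequence of 3R in replicate 1 and 11.4% in replicate 2. They were fewer in the 8.64 Mb nearest the telomere, where replicate 1 had 13 and replicate 2 had 12. In the 8.64 Mb nearest the centromere there were 25 and 23, and in the 8.64 Mb between them 27 and 24. The number of clusters of any width differed less between these stretches, at 439 to 445 in replicate 1 and 418 to 428 in replicate 2.

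The widest and the strongest members named here were taken from the 1176 members that each replicate covered over 50% or more of their length, so their presence in both replicates follows from that choice. Both sets of 10 shared no member. The widest ran from 5901559 to 5921422, spanned 19.9 kb in the combined list, was a single cluster of 19.9 kb in replicate 1 and was split into 2 clusters in replicate 2, the wider of 14.2 kb. Its score of 1.74 ranked 366 among the 1512 members. The next, from 10102655 to 10115998, was 13.3 kb wide, a single cluster of 12.9 kb in replicate 2 and 2 clusters in replicate 1. The member from 4872013 to 4884750 was 12.7 kb wide and a single cluster in each replicate, of 12.8 and 12.4 kb. Those beginning at 12029901 and 9622731 were 12.2 and 11.6 kb wide.

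These 5 were the members of 10 kb or more, and the other 5 of the 10 widest were 8.15 to 9.54 kb wide and began at 6086472, 6706852, 8542157, 24151137 and 7583259. Of the 10, 2 were single clusters in both replicates, 1 was split in both, and 7 were split in 1 replicate alone. Over all members, 34 of 1512 were split into 2 or more clusters in at least 1 replicate, so a width of this size depends on where a list divides a region.

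**Figure D2:**
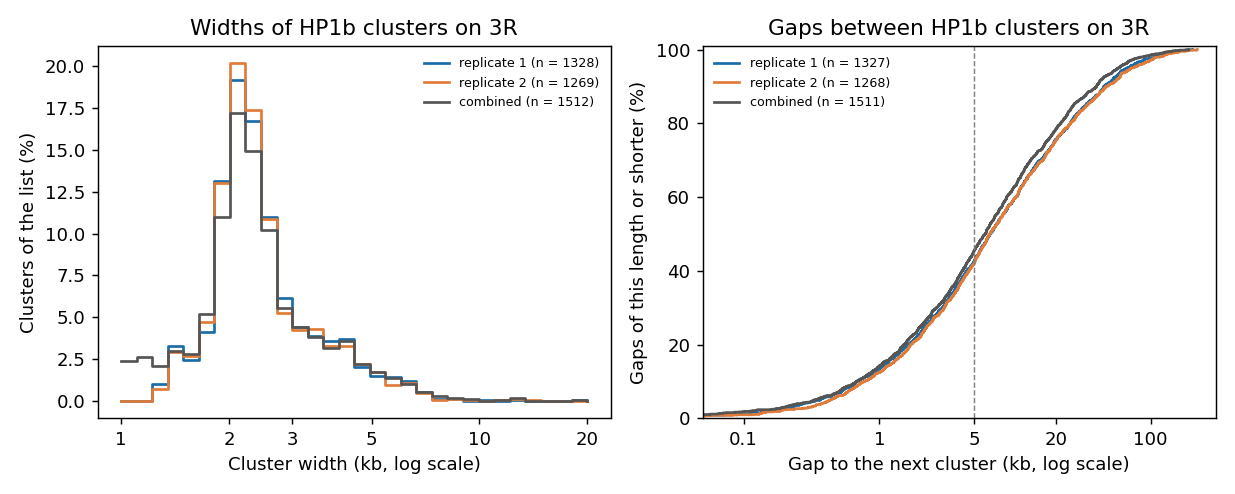
Left, share of clusters (%) by width in kb (log axis) and, right, cumulative share of gaps (%) by gap length in kb (log axis) for HP1b clusters of 3R beyond 2 Mb in the lists of replicates 1 and 2 and the combined list. Widths peaked between 2 and 3 kb in each list, the combined list alone reached down to 1001 bp, and the dashed line at 5 kb marks where 42.4%, 42.1% and 45.5% of the gaps lay at or below.

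Among those 1176 members, the 10 of highest score were 2.32 to 4.11 kb wide and were single clusters in each replicate. They ranked 1 to 5 and 7 to 11 of all 1512 members, rank 6 being the narrow member at 8297010 that neither replicate overlapped. The strongest, from 22013398 to 22015986, had scores of 4.00 in replicate 1, 4.47 in replicate 2 and 4.25 in the combined list and ranked 1 on 3R in each list. The next, from 9226156 to 9230263, had 3.90, 4.10 and 3.98 and ranked 2 in each. The member from 3732032 to 3734421 ranked 4 in each replicate, with scores of 3.82 and 3.99. That from 11053969 to 11056539 ranked 7 in replicate 1 and 3 in replicate 2, with 3.70 and 4.06. The remaining 6 began at 7945942, 5625617, 21083341, 22538955, 7834990 and 24947526, with combined scores from 3.59 to 3.74. In replicate 1, 9 of these 10 ranked among its own first 10 on 3R, and in replicate 2, 8 of 10 did. Their order beyond the first and second therefore differed between the replicates.

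The strongest of these members lay in windows of low and of high coverage. The top member lay in a 250 kb window of 3R that was covered over 6.25%, below the median window of 12.2%, and the next in a window covered over 10.4%. Of the 10, 3 lay in windows above the median, whereas 773 of the 1173 members chosen by the same overlap that lay in full windows (65.9%) did so. The 3 were the members beginning at 11053969, 5625617 and 24947526, in windows covered over 29.8%, 22.9% and 17.3%, the first being the densest of all. Most of the other 7 lay in windows only a little under the median, 5 of them above 10%. With 10 members, this difference was not tested. The member of rank 6 that was left out lay in a window covered over 14.3%. Across the 103 full windows, coverage and the median score of the combined members in the window correlated with Spearman's rho = 0.333, a description over windows of the same libraries.

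Coverage in windows of 250 kb, counted from the 2 Mb boundary on, varied widely along the arm and alike in both replicates. In replicate 1 the lowest window had 2.11%, the median 12.9% and the highest 31.2%. In replicate 2 these were 1.68%, 12.2% and 28.3%. Over windows the SD of coverage was 6.17 points for replicate 1 and 5.94 for replicate 2, whereas the SD between replicates within a window was 0.537 at the median and 2.77 at most. Over the 103 windows, which share their libraries, Pearson's r between the replicates was 0.985 and Spearman's rho 0.981. Replicate 1 was higher in 75 windows and replicate 2 in 28. Windows of 20% or more numbered 15 in replicate 1 and 13 in replicate 2, and 6 windows in each lay under 5%.

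Windows differed in the number of clusters rather than in their width. A window held 2 to 30 clusters in replicate 1 and 1 to 28 in replicate 2. Spearman's rho between coverage and this number was 0.955 in replicate 1 and 0.950 in replicate 2. For the mean width of the clusters in a window it was 0.274 and 0.238. Number enters coverage directly, so the first of these relations is high by construction.

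**Figure D3:**
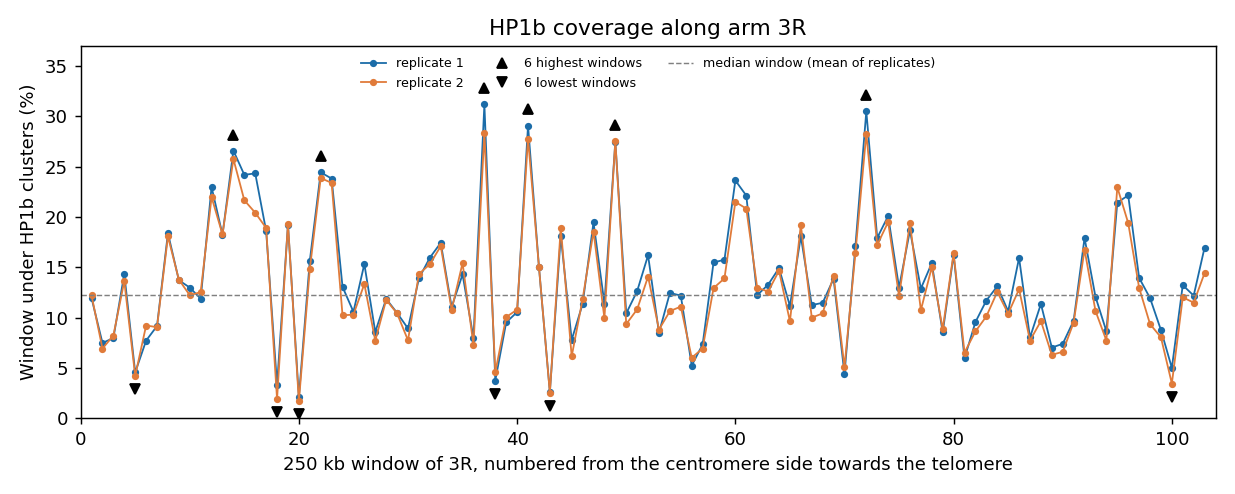
Share of each full 250 kb window of 3R under HP1b clusters (%, vertical axis) by window number from the centromere side to the telomere (horizontal axis) in replicates 1 and 2. Both replicates traced the same peaks and troughs, the triangles mark the 6 highest and 6 lowest windows by the mean of the replicates, and the dashed line is the median window at 12.2%.

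The densest window of 3R, 11000001 to 11250000, had 31.2% under clusters in replicate 1 and 28.3% in replicate 2 (29.8% ± 2.01, SD, n = 2), with 30 and 28 clusters. The window from 19750001 to 20000000 followed at 30.5% and 28.3% (29.4% ± 1.56), which is within the replicate spread of the first. The window from 12000001 to 12250000 was covered over 29.1% and 27.8% with only 22 clusters in each replicate, whose mean widths of 3306 and 3159 bp exceeded the 2678 and 2658 bp of the whole stretch. Next came 14000001 to 14250000 with 27.5% in each replicate, 5250001 to 5500000 with 26.6% and 25.8%, and 7250001 to 7500000 with 24.4% and 23.9%. These 6 windows held the same order in both replicates, although the means of the first and second lay closer to each other than their SDs.

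The emptiest window, 6750001 to 7000000, had 2.11% under clusters in replicate 1 and 1.68% in replicate 2 and held 2 clusters in each. The window from 12500001 to 12750000 was covered over 2.59% and 2.54% with 3 clusters in every list, and all 3 of its combined members were found in at least 1 replicate. The window from 6250001 to 6500000 had 3.34% and 1.91%. The other 3 of the 6 lowest, 11250001 to 11500000, 26750001 to 27000000 and 3000001 to 3250000, had means of 4.16% ± 0.590, 4.23% ± 1.10 and 4.38% ± 0.246 (SD, n = 2 each), which do not differ beyond their spread. None of the 6 lowest windows was free of clusters.

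Dense and empty windows could lie next to each other. The largest steps, picked after the values were seen, both involved the densest window. The window on its centromere side had 7.99% in replicate 1, against 31.2% inside, and 7.27% in replicate 2, against 28.3% inside. Coverage then fell by 27.4 percentage points to 3.75% in replicate 1 and by 23.8 points to 4.58% in replicate 2 in the next window. The window from 12000001 and the window from 12500001, at 28.4% and 2.56% on average, were separated by a single window. Across neighbouring windows coverage correlated with r = 0.0962 in replicate 1 and 0.0569 in replicate 2, so the level of a window said little about that of the next.

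Runs of neighbouring windows on the same side of the median also occurred, and those named here were picked after the values were seen. A run of 6 windows from 4750001 to 6250000 lay above the median throughout and had a coverage of 22.5% in replicate 1 and 21.2% in replicate 2. A run of 6 from 19500001 to 21000000 was covered over 19.5% and 18.8%, and the longest, 7 windows from 16250001 to 18000000, over 16.8% and 15.6%. Windows within a run could differ widely. In the run from 19500001 the means of the replicates went from 12.6% to 29.4%. At or below the median, runs of 5 windows lay from 15000001 to 16250000 (9.14% and 8.70%) and from 23500001 to 24750000 (8.70% and 7.96%).

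Over the whole length, coverage was slightly lower toward the telomere in each replicate. The 8.64 Mb nearest the centromere had 14.2% in replicate 1 and 13.6% in replicate 2, the middle 13.9% and 13.2%, and the 8.64 Mb nearest the telomere 13.2% and 12.2%. The order was the same in both replicates. The means were 13.9% ± 0.378, 13.5% ± 0.484 and 12.7% ± 0.644 (SD, n = 2 each), and these spreads overlap between neighbours. Within a replicate, which holds the library constant, the stretch nearest the centromere exceeded the middle by 0.287 and 0.438 points. The middle exceeded the stretch nearest the telomere by 0.728 and 0.954 points. Both replicates follow the same sites, so their shared order does not measure variation along the arm. Coverage of single 250 kb windows had an SD of 6.17 points in replicate 1 and 5.94 in replicate 2. Whether these stretches differ beyond such variation was not tested. The median score was highest nearest the centromere, at 1.16 in replicate 1 and 1.27 in replicate 2, and lower in the middle (0.923 and 0.971) and nearest the telomere (1.00 and 1.03). Members in neither replicate list numbered 45 of 488 nearest the centromere (9.22%), 43 of 505 in the middle (8.51%) and 64 of 519 nearest the telomere (12.3%).

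Gaps between neighbouring clusters were short in many places and long in few. In replicate 1 the median gap was 6569 bp and the mean 16705 bp, and in replicate 2 they were 6540 and 17628 bp. Gaps of 5 kb or less made up 563 of 1327 (42.4%) in replicate 1, where all sequences gave 43.2%. In replicate 2 they made up 534 of 1268 (42.1%), where all sequences gave 42.9%, so 3R was close to the whole. In the combined list they made up 688 of 1511 (45.5%), against 47.1%. Gaps of 50 kb or more were few but held much of the free sequence. Those of 50 to 100 kb numbered 87 in replicate 1 and 84 in replicate 2 and held 26.1% and 25.8% of the gap length. Those over 100 kb numbered 31 and 36 and held 18.4% and 22.2%.

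Clusters close together formed short runs. Joined where 1 kb or less lay between them, the clusters of replicate 1 gave 1149 regions, of which 147 held more than 1 cluster, and those of replicate 2 gave 1112, of which 131 did. Pairs were the usual form, 122 in replicate 1 and 107 in replicate 2, with 19 and 23 runs of 3. The widest run of replicate 1 held 4 clusters from 12029909 to 12052615 and spanned 22.7 kb, with 90.2% of it under clusters of replicate 1 and 80.2% under those of replicate 2. Just beyond it lay another run of 4 from 12056588 to 12077607 of 21.0 kb. Both runs belong to the window from 12000001 that ranked 3 by coverage. In replicate 2 the widest run was 3 clusters from 23741227 to 23756254, 15.0 kb long. Replicate 1 had the same run from 23741216 to 23756000, 14.8 kb long. A run of 5 clusters from 18405446 to 18420337 in replicate 2, 14.9 kb long, met 4 clusters of replicate 1, and a run of 3 from 12056670 to 12071267, 14.6 kb long, lay within the replicate 1 run from 12056588.

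Between kept clusters, the longest stretch free of clusters in both replicates ran from 6242866 to 6447112 of 3R, over 204 kb. It was the longest gap in each replicate, at 204 kb in replicate 1 and 221 kb in replicate 2. It began within the last window of the dense run that ended at 6250000. The next ran from 6799014 to 6981644, over 183 kb. It was the only 1 of the 6 longest between kept clusters with no combined member in it. The others ran from 23973302 to 24151091 (178 kb), from 26715908 to 26878682 (163 kb), from 26443975 to 26606358 (162 kb) and from 21524115 to 21676038 (152 kb). These held 1 or 2 combined members each, and the stretch of 162 kb held the 1001 bp member with a score of 3.03. All 6 were among the 11 longest gaps between kept clusters of each replicate, with ranks 1 to 6 in replicate 1. The free stretch across the 2 Mb boundary was not counted, since the last cluster before it was left out. In both replicates that stretch reached from 1997738 to 2170610, and it was longer than those of 163, 162 and 152 kb. The end of the stretch from 23973302 met the 8.19 kb member that began at 24151137, 1 of the 10 widest.

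Toward the telomere end, HP1b clusters reached close to the end of the assembled sequence but were few in the stretch just before. The last cluster ended 9693 bp from the end of 3R in replicate 1, 9684 bp in replicate 2 and 9668 bp in the combined list. It spanned 27892815 to 27895385 in the combined list and scored 1.37 in replicate 1, 1.51 in replicate 2 and 1.36 in the combined list. The 4 members before it began at 27889213, 27876596, 27840117 and 27810462. Those at 27876596 (combined score 1.84) and 27810462 (0.984) were in both replicates, that at 27840117 (0.391) in replicate 1 alone and that at 27889213 (0.147) in replicate 2 alone.

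Clusters covered 4.83% of the last 250 kb of 3R in replicate 1 and 3.52% in replicate 2 (4.17% ± 0.922, SD, n = 2), with 5 and 4 clusters. Within it the clusters lay mostly in the last 100 kb, which was covered over 9.39% and 8.81% with 4 clusters in each replicate. The 250 kb before the last 250 kb was among the dense parts of the arm, with 26.6% and 23.4% (25.0% ± 2.26) and 23 and 22 clusters. The 500 kb before that had 10.4% and 8.32% in its first 250 kb and 7.74% and 7.02% in its second. The last 1 Mb together had 12.4% in replicate 1, where the rest of the stretch had 13.8%, and 10.6% in replicate 2, where the rest had 13.1%. The end minus the rest was -1.39 and -2.55 percentage points. The sign of such a difference depends on the length taken, since the last 500 kb exceeded the rest by 1.25 points on average. The last 500 kb of 3R thus held a dense and a sparse block side by side.

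**Figure D4:**
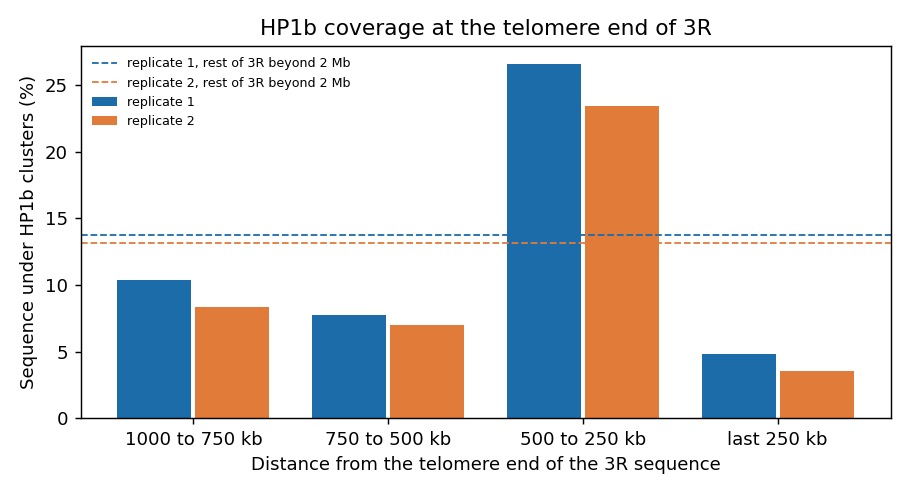
Share of sequence under HP1b clusters (%, vertical axis) in the 4 consecutive stretches of 250 kb that make up the last 1 Mb of 3R (horizontal axis), bars by replicate, with the level of the rest of 3R beyond 2 Mb as dashed lines. The stretch 500 to 250 kb from the end stood at 26.6% and 23.4%, and the last 250 kb at 4.83% and 3.52%.

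The arms 2L and 3L, with the 2 Mb next to their centromeres left out in the same way, served for comparison. Coverage of 3R was level with 2L, at 13.7% in replicate 1 for each and 13.0% in replicate 2 for each. The difference changed sign between the replicates, 0.0334 and -0.0264 percentage points. Against 3L, 3R was lower by 0.637 points on average, at 13.7% against 14.4% in replicate 1 and 13.0% against 13.7% in replicate 2. This was more than the SD between replicates of either arm (0.502 and 0.480), but among the higher-scoring clusters of each list 3R was higher than 3L by 0.262 points. The number of clusters was 50.1 ± 1.61 per Mb on 3R, 49.9 ± 1.65 on 2L and 53.7 ± 1.22 on 3L (SD, n = 2 each). Each replicate is a single library over all arms, so the arms are paired within a replicate, and an exact two-sided permutation test over 2 such pairs cannot go below p = 0.5. None was made.

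The scores of 3R clusters were somewhat higher than those of both arms in each replicate. The median was 1.03 in replicate 1 and 1.09 in replicate 2 on 3R, 0.974 and 1.03 on 2L, and 0.964 and 0.988 on 3L. Within replicates 1 and 2, 3R was higher than 2L by 0.0551 and 0.0559 and higher than 3L by 0.0651 and 0.102. The mean differences were 0.0555 and 0.0835. The replicate SDs of 3R, 2L and 3L were 0.0431, 0.0425 and 0.0171, which include any offset in scale between the lists. Replicate 1 of 3R lay just under replicate 2 of 2L, a comparison across lists that may not share a scale. The upper quartile of the scores differed more, at 1.81 and 1.96 on 3R, 1.64 and 1.81 on 2L and 1.62 and 1.70 on 3L. Gaps of 5 kb or less made up 42.3% ± 0.221 on 3R, 41.9% ± 0.102 on 2L and 40.8% ± 0.298 on 3L, and the median width was 2298, 2269 and 2260 bp. Clusters of 5 kb or wider made up 4.77% on 3R, 5.44% on 2L and 4.79% on 3L.

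The first cluster counted from the telomere lay nearer the end on 3R than on the other arms, at 9693 and 9684 bp in replicates 1 and 2. On 2L it lay at 17602 and 17589 bp and on 3L at 50983 and 125194 bp. The last 1 Mb was covered less on 3R, with 12.4% and 10.6%, than on 2L, with 16.9% and 15.4%, and on 3L, with 20.3% and 18.8%. How far each assembled sequence reaches into the telomere was not determined here.

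**Figure D5:**
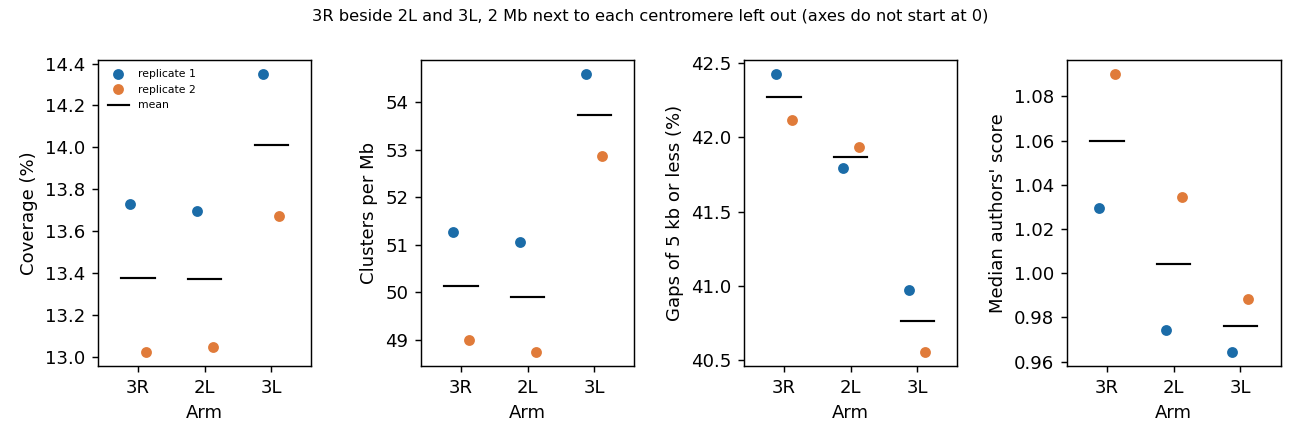
Coverage (%), clusters per Mb, gaps of 5 kb or less (%) and median authors' score for 3R, 2L and 3L outside the 2 Mb next to the centromere, with points for replicates 1 and 2 and a line for their mean (vertical axes do not start at 0). Coverage of 3R was level with 2L and below 3L in both replicates, and the median score of 3R was the highest of the 3 arms within each replicate.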

How the data were processed

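HP1b ChIP-seq was listed for 2 ChIP samples and, as a combined list, for the replicate set. The submitters' processing notes name Bowtie 0.12.7, a read aligner, and per the file headers positions are on FlyBase release 5. Which caller and threshold made the clusters, and how inputs entered, the sources used here do not give. The authors' deposited score of each cluster has no stated formula or scale. It was used to rank and describe clusters within a list, to relate paired clusters of the replicates and to set arms side by side. Scores of different lists may not share a scale. Starts and ends are as deposited by the authors.

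Samples were grouped by title. Coverage, widths, gaps and overlaps at 1 bp were computed with scipy 1.17.1, pandas 2.3.3 and numpy 2.4.6 under Python 3.11.15, and figures with matplotlib 3.10.9. The interval functions were tested on simulated data. The depth of the libraries is unknown, so the precision is the spread of 2 replicates. Named were the 10 members of highest score and the 10 widest with 50% of their length under each replicate, and the 6 highest and 6 lowest full windows. Also named were the 6 longest free stretches between kept clusters, the last 5 members and the 3 widest runs of each replicate. Members and rules were chosen with earlier results of these data known. Alternatives were other lists, score and width limits, overlaps, windows, boundaries and single replicates. Genes and sequences were not used here, since release 6 is the build of the available gene table.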

Additional observations from a re-analysis of the deposited data

Results flagged for a closer look

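The combined list also holds regions typed as depleted of HP1b signal, which enter no comparison above. On 3R there are 4, all beyond the first 2 Mb, and they are listed here because they lie outside the enriched clusters described. They run from 12322302 to 12324167, from 17233329 to 17235176, from 17312845 to 17314541 and from 22770235 to 22772063, are 1697 to 1866 bp wide and have scores from -0.110 to -0.00990. An enriched cluster of a replicate list overlaps 3 of these 4 regions. The region from 17233329 does so in both, with scores of 0.365 in replicate 1 and 0.183 in replicate 2. The regions from 17312845 and 22770235 do so in replicate 2 alone, with scores of 0.0968 and 0.206, and the region from 12322302 in neither. The cluster of score 0.0968 is the lowest of the replicate 2 list on 3R. The other overlapping clusters were of low score too. By score, the cluster over the region from 17233329 stood at percentile 7.14 of 3R in replicate 1 and 0.573 in replicate 2. The cluster over the region from 22770235 stood at percentile 1.00 in replicate 2. Why the types differ between the lists was not tested.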

How the results depend on the processing

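With the combined list, coverage of 3R was 15.4%, the coefficient of variation over windows 43.1% (45.1% for the replicates), the median width 2281 bp, gaps of 5 kb or less 45.5%, and the coverage of 3R minus 2L and minus 3L -0.0525 and -0.900 percentage points. With only the clusters at or above the median score of their list, coverage was 7.98%, near gaps 25.8%, and 3R minus 2L and 3L 0.0859 and 0.262 points, the latter a reversal whose cause was not tested. Fewer clusters lower coverage by construction. Members in both replicates made up 99.2% of those at or above the median score and 83.7% of those as wide as the narrowest replicate cluster, and 77.8% at an overlap of 50%. The coefficient of variation was 70.03% in windows of 100 kb, 32.9% in windows of 500 kb and 47.6% in windows shifted by 50% of their length. Joining clusters 1 kb or less apart gave a median width of 2393 bp and near gaps of 33.7%, as short gaps are removed. The last 500 kb differed from the rest of 3R by 1.25 points and the last 250 kb by -9.29, against -1.97 for the last 1 Mb. Leaving out the first 1 or 3 Mb moved coverage by less than the replicate spread. Without replicate 1 or replicate 2, coverage was 13.0 to 13.7%, the matched share 82.4 to 85.8%, the coefficient of variation 44.8 to 45.5%, the median width 2290 to 2306 bp, near gaps 42.1 to 42.4%, the telomere difference -2.55 to -1.39 points, 3R minus 2L -0.0263 to 0.0334 and 3R minus 3L -0.652 to -0.621 points. The matched share without a replicate is higher by construction. No paired analysis was possible because the ChIP and input groups, which share replicate numbers, cannot be compared without input lists. Arms and stretches were instead set side by side within each replicate. Unknown depth limits any statement on weak clusters.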
